A study of Mus musculus with 4 samples.

Results

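Myelin genes were followed across a single-nucleus RNA sequencing series of mouse brain, inside and outside the nuclei of oligodendrocytes. The genes were Mbp, Mobp, Mag, Mog, Cnp, Mal, Opalin, Ermn and Cldn11. They were found by symbol in the feature table that the matrices share, which held 9 of 9 among 32285 genes. They were chosen by their known place in myelin and by their levels in earlier results of these data, high in oligodendrocytes and above 0 elsewhere, so levels by class are a description and were not tested.

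The brains came from female 5XFAD mice, a transgenic line that carries familial Alzheimer's disease mutations in human amyloid precursor protein and presenilin 1 under a neuronal promoter. Both groups carried the transgenes, were 7 to 10 weeks old by the labels, and received 6.55e9 extracellular vesicles (EVs) in a vein, which the labels call exosome-enriched. By the study's account of these libraries they were engineered EVs, lipid particles derived from the EVs of adipose tissue with their proteins and nucleic acids removed, and they were low (PE-low EVs) or high (PE-high EVs) in phosphatidylethanolamine, an abundant membrane phospholipid. Each group had 2 libraries, each made from the pooled brains of 2 mice, so single animals cannot be told apart, and no library without EVs was analysed here.

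Myelin is the membrane that oligodendrocytes wrap around axons in layers, and it insulates them for fast conduction. Its compact layers are held together on the cytoplasmic side by the basic proteins MBP and MOBP. MAG sits in the innermost layer facing the axon, and MOG on the outermost surface. CNP is an enzyme of the cytoplasmic channels between the layers, and claudin 11 (Cldn11) makes the tight junctions of the sheath. MAL is a tetraspan protein of lipid rafts that sorts cargo to the membrane, also in epithelia. Opalin is a membrane glycoprotein of mature oligodendrocytes, and ermin (Ermn) binds actin in the sheath of mature cells. Some of these mRNAs leave the cell body: Mbp mRNA is carried along the processes of the oligodendrocyte and translated at the sheath. RNA outside nuclei is set free when nuclei are prepared, and droplets that hold no nucleus can capture it.

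The genes were therefore measured in classes of nuclei and in near-empty barcodes, here the barcodes ranked 45000 to 90000 by their count of unique molecular identifiers (UMIs, which count captured mRNA molecules). In each library the near-empty barcodes held at most 212 to 299 UMIs each and 5205173 to 8083296 UMIs in sum. All levels are in CPM, the UMIs of a gene per 1000000 UMIs of the same class or of the near-empty barcodes. Counts from the 3' end were not scaled by gene length, so a level is compared between compartments for the same gene and not between genes. Values of single libraries are listed as PE-low replicate 1, PE-low replicate 2, PE-high replicate 1 and PE-high replicate 2, and means are given ± SD over these 4 libraries.

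The libraries held 29472021 to 43272337 UMIs, and 8735 to 13915 barcodes per library were called nuclei. A limit of 3% mitochondrial UMIs left 2778, 2996, 1457 and 3457 nuclei, 10688 in all, and a limit of 15% left 7601 to 10289 per library, 37508 in all. The lower limit is the one in the study's methods, whereas the number of nuclei that the study describes is close to the number left by the higher one. Values at both limits are shown where they differ. Clusters were built without the 9 genes, so these genes did not place a nucleus in a class. The oligodendrocyte-like class held 51, 157, 20 and 67 nuclei at 3%, and 1052, 1159, 893 and 816 at 15%. Of 13 oligodendrocyte markers that were not members, 12 or 13 were raised in each of its clusters. Nuclei left unnamed, or with markers of oligodendrocytes and neurons together, made up 3.64% to 5.35% of a library at 3% and 5.37% to 9.08% at 15%. Any pair of libraries shared 0 to 4 barcodes among the nuclei kept at 3%, and 19 to 35 at 15%.

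The members lie on 8 chromosomes of GRCm38, the assembly behind mm10. In the GENCODE annotation Mobp spans chr9:120149707-120181484 on the plus strand, and Mal spans chr2:127633226-127656695 on the minus strand. Mag (chr7:30899176-30914873), Mog (chr17:37010743-37023398), Opalin (chr19:41061710-41077113) and Ermn (chr2:58045113-58052864) are on the minus strand, and Cnp (chr11:100574904-100591729) and Cldn11 (chr3:31149920-31164324) on the plus strand. Introns make up 53.1% of Ermn, the shortest member at 7.8 kb, and 92.3% of Mbp, the longest at 110.5 kb. The promoters of Mobp and Mal are shown because the weight of these genes among the 9 moved in opposite directions between oligodendrocyte-like nuclei and near-empty barcodes. They are RefSeq sequences of GRCm38.p6, 5' to 3' on the strand of the gene, from 250 bases before the RefSeq start to 50 bases after it, at chr9:120149492-120149791 on the plus strand and chr2:127656646-127656945 on the minus strand. Capitals mark ACAAAG, or CTTTGT where it lies on the other strand, a core bound by SOX factors such as SOX10 of the oligodendrocyte lineage.
Mobp: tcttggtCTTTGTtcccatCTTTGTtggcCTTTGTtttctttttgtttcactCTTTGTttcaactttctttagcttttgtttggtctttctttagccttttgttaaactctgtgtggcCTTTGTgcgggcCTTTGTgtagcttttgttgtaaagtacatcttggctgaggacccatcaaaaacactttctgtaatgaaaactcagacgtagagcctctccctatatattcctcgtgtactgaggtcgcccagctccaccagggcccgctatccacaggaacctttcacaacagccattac
Mal: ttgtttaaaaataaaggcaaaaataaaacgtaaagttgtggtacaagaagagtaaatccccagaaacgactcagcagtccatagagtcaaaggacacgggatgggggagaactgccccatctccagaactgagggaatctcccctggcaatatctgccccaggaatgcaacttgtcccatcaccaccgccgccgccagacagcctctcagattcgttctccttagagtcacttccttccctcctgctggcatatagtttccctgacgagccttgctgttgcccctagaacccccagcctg
The Mobp window held 6 matches and the Mal window 0. The 8 members whose windows were read (all but Mbp) had 10 windows, 3 of them of Mag. Of these 10, 5 had at least 1 match (those of Mobp, Cnp and Opalin and 2 of Mag), beside 18.7% of all 32851 windows of this length. The letters CTGGCAC or CTGGTAC, a core bound by the myelin regulatory factor MYRF, were in 5 of the 10 (those of Mog, Cnp and Opalin and 2 of Mag), beside 7.1% of all windows, and in neither window printed here. The 2 matching windows of Mag overlap and hold the same sites. Counted by gene, each motif was in 4 of the 8 members. Both motifs were searched on both strands, and their matches can overlap because one ends in AC and the other starts with it. A match describes the letters only.

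In oligodendrocyte-like nuclei the 9 genes together gave about 1 in 100 UMIs. Their summed level at 3% was 11459, 10639, 11275 and 11362 CPM (11184 ± 371). The libraries lay close together and the EV groups overlapped. At 15% the sum was 8738, 8951, 7584 and 8442 (8429 ± 601), lower than at 3% in each library, and both PE-low libraries were above both PE-high libraries. Outside the lineage the sum was far lower in nuclei. It was 323, 288, 241 and 232 in excitatory neuron-like nuclei, 400, 348, 260 and 298 in inhibitory neuron-like nuclei, and 376, 375, 290 and 312 in striatal neuron-like nuclei. As a share of the level in oligodendrocyte-like nuclei of the same library this was 2.43% ± 0.392, 2.92% ± 0.551 and 3.03% ± 0.446. At 15% it was 3.91% ± 0.716, 4.91% ± 0.538 and 5.16% ± 0.552. With a gate of at least 3 oligodendrocyte markers per nucleus in place of clusters it was 8.30%, 9.97% and 10.3% at 3%. The gate took nuclei of any cluster, 824 beside the 295 of the oligodendrocyte-like class. Most gated nuclei thus lay outside that class, and their level is not that of oligodendrocytes alone. The ranges of the 3 neuron classes overlapped between libraries. Within each library the excitatory class was the lowest of the 3 at both limits. At 3% the inhibitory class was above the striatal class in PE-low replicate 1 only, and at 15% it was below it in every library. This order was not tested.

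Near-empty barcodes lay between nuclei of neurons and of oligodendrocytes. The sum there was 2422, 2689, 1647 and 1852 CPM, which was 21.1%, 25.3%, 14.6% and 16.3% of the oligodendrocyte-like level of the same library at 3% (mean 19.3% ± 4.83), and above each neuron class in every library. Against oligodendrocyte-like nuclei at 15% the share was 25.4% ± 4.18. Against the nuclei of the marker gate at 3%, most of them outside the oligodendrocyte-like class, it was 65.6%. In such sums, fewer cells of a type and less RNA per cell cannot be told apart. Called nuclei held 50.4% to 50.9% of all UMIs of a library, but 27.5% to 35.6% of the UMIs of the 9 genes. So most captured molecules of these genes were counted in barcodes that were not called nuclei. This split depends on the cut for calling, whose knee was at 573, 839, 405 and 422 UMIs. Any shallow nuclei that were not called are counted among these barcodes.

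**Figure D1:**
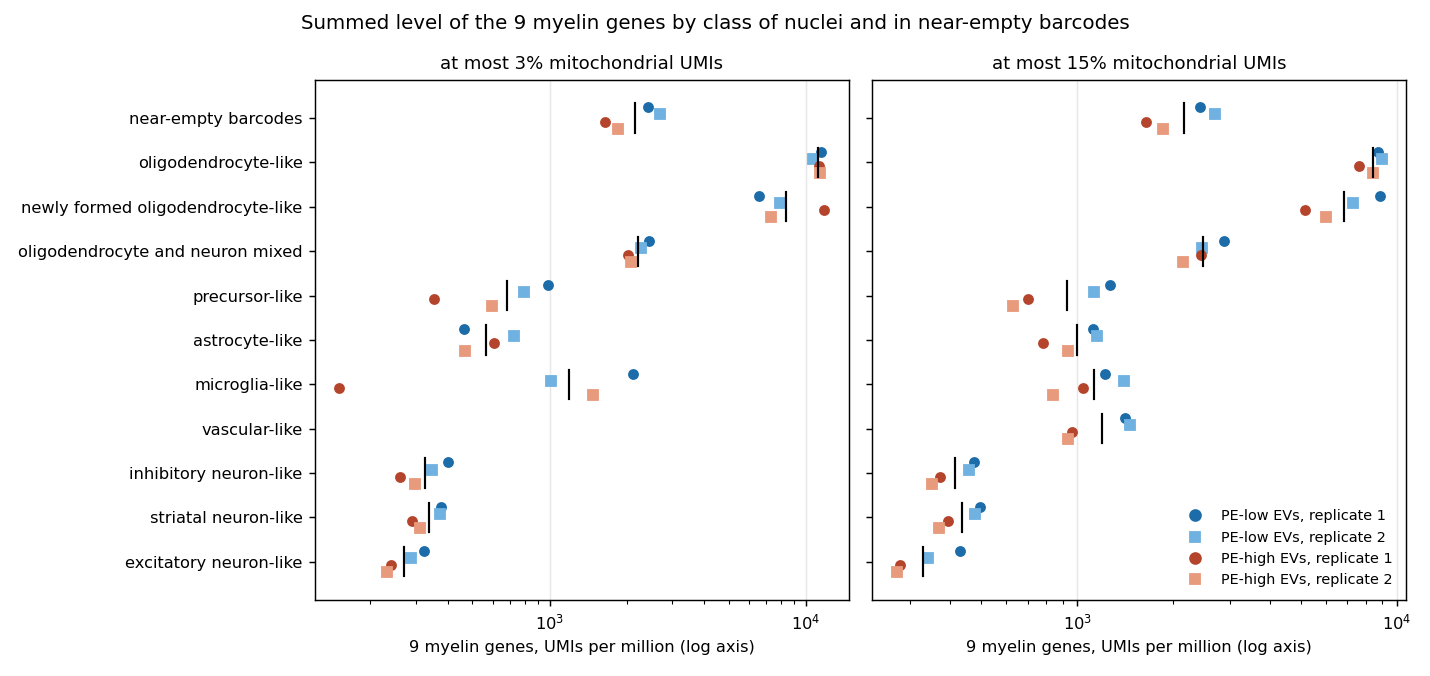
Summed level of the 9 myelin genes, in CPM on a log axis, in near-empty barcodes and in each class of nuclei at limits of 3% (left) and 15% (right) mitochondrial UMIs. Each point is 1 of the 4 libraries and each vertical line is their mean. Oligodendrocyte-like nuclei lie between 7584 and 11459, near-empty barcodes between 1647 and 2689, and the neuron classes below 500.

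Mbp, whose protein compacts the sheath, was at 5334, 4747, 4521 and 5254 CPM in oligodendrocyte-like nuclei at 3% (4964 ± 394). Mobp, which codes for the other basic protein of compact myelin, was at 2065, 2606, 2791 and 3034 (2624 ± 412). Both were high in every library. PE-low replicate 1 had the lowest Mobp, and it was again the lowest at 15%, where Mobp was at 1227, 1984, 1635 and 1856. Mag, the adhesion protein that faces the axon, was at 877, 706, 1116 and 694 (849 ± 197). Mog, on the outer surface, was at 1204, 1000, 1340 and 872 (1104 ± 208). For Mag and Mog, the highest and the lowest library were both PE-high. Mal was at 499, 534, 726 and 575 (583 ± 99.8), with both PE-high libraries above both PE-low ones.

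The other members rested on fewer UMIs. Opalin, of mature cells, was the steadiest, at 310, 283, 335 and 317 (311 ± 21.7). Cldn11, the junction protein, was at 551, 408, 279 and 238 (369 ± 141), and both PE-low libraries were above both PE-high libraries. Ermn, the actin-binding protein, was at 275, 241, 55.8 and 278 (212 ± 106). Its low value in PE-high replicate 1 rests on the smallest class, of 20 nuclei. Cnp, the enzyme of the channels, was at 344, 115, 112 and 99.1 (168 ± 118), from 49 UMIs in all 295 nuclei. PE-low replicate 1 stood above the others. At 15%, with 3920 nuclei, Cnp was at 283, 198, 243 and 192 and Ermn at 239, 201, 178 and 210, and no library stood as far apart.

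The 9 genes did not stand in the same proportion in near-empty barcodes as in oligodendrocyte-like nuclei. The level of Mog in near-empty barcodes was 6.89% ± 2.10 of its level in oligodendrocyte-like nuclei at 3%, and that of Mobp 13.1% ± 4.71. That of Mbp was 16.8% ± 4.06. At the other end stood Mal and Cnp. Mal reached 83.4%, 94.3%, 38.6% and 62.4% (69.7% ± 24.6), and Cnp 49.3%, 146%, 115% and 139% (112% ± 44.2). For Cnp the near-empty level exceeded that of oligodendrocyte-like nuclei in 3 of 4 libraries at 3%, and in 0 of 4 at 15%, where the share was 60%, 85.3%, 53.0% and 71.7%. Mal stayed at 55.4% ± 11.7 at 15% and Mog at 9.51% ± 1.13.

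Seen as shares of the 9 genes' UMIs, which do not depend on how much myelin RNA a compartment holds, the same members stood out. Mal was 4.35%, 5.02%, 6.44% and 5.06% of the 9 genes in oligodendrocyte-like nuclei at 3%, and 17.2%, 18.7%, 17% and 19.4% in near-empty barcodes. The 2 sets of values did not overlap, and within a library the share was 2.65 to 3.94 times higher in near-empty barcodes. The size of this difference depended on which barcodes were taken as near-empty. In barcodes with 1 to 9 UMIs the share of Mal was 9.28%, 9.57%, 10.4% and 9.61%, which was 1.61 to 2.13 times that in the nuclei at 3%. Cnp went from 0.873% to 3.0% in the nuclei to 6.27% to 7.81% in near-empty barcodes. Cldn11 went from 2.09% to 4.80% to 6.41% to 7.99%, and its share was also higher in near-empty barcodes in 4 of 4 libraries. Mog moved the other way, from 7.68% to 11.9% in the nuclei to 3.14% to 3.66% in near-empty barcodes. Mobp went from 18%, 24.5%, 24.8% and 26.7% to 15.5%, 15.5%, 15.5% and 14.8%. Mbp, the member with most UMIs, went from a mean of 44.4% ± 2.98 to 38.6% ± 1.17. Its share in near-empty barcodes was 0.799 to 0.977 times that in the nuclei at 3%, and 0.841 to 0.908 times at 15%. It was lower in 4 of 4 libraries at both limits. With barcodes of 1 to 9 UMIs it was 0.946 to 1.08 times that at 3%, and higher in 3 of 4 libraries.

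At 15% the shares of Mal, Cnp, Cldn11 and Mog differed between the compartments in the same direction. The share of Mal was 1.81 to 2.43 times higher in near-empty barcodes than in oligodendrocyte-like nuclei, that of Cnp 2.17 to 3.27 times and that of Cldn11 1.76 to 2.01 times, each in 4 of 4 libraries. Mog was at 0.346 to 0.432 times its share in the nuclei. With barcodes of 1 to 9 UMIs, the share of Mal at 15% was 0.979, 1.24, 1.37 and 1.12 times that in the nuclei, and no longer higher in PE-low replicate 1. Cnp was then at 1.35 to 3.84, Cldn11 at 1.38 to 1.90 and Mog at 0.335 to 0.478 times. For Mobp the ratio was 1.10, 0.701, 0.719 and 0.671. It was above 1 in PE-low replicate 1, where Mobp made up 14.0% of the 9 genes in oligodendrocyte-like nuclei, beside 21.6% to 22.2% in the other libraries. With 4 libraries and levels that were known before, these contrasts are given as values with no test. Among the near-empty barcodes, the SD of a share over the libraries was at most 1.17 percentage points. Small shares still differed in proportion, with Opalin from 1.78% to 2.58% and Cldn11 from 6.41% to 7.99%.

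**Figure D2:**
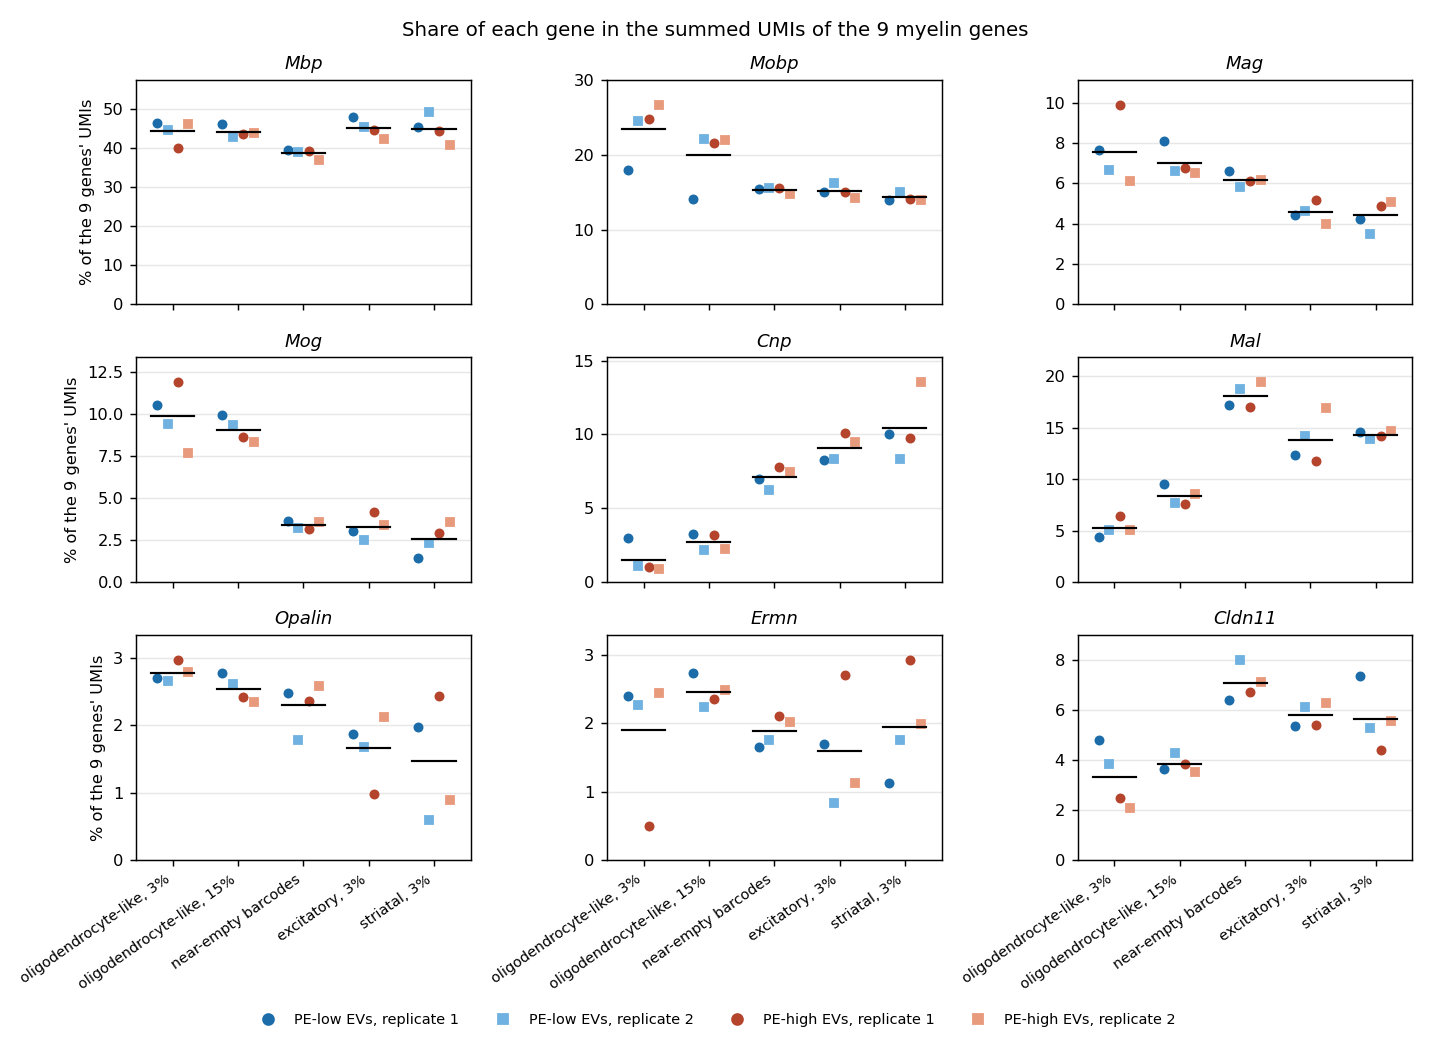
Share of each gene in the summed UMIs of the 9 myelin genes, in percent, in oligodendrocyte-like nuclei at 3% and 15%, near-empty barcodes, and excitatory and striatal neuron-like nuclei at 3%. Each point is 1 library and each bar the mean of 4. Mal, Cnp and Cldn11 lie higher, and Mog lower, in near-empty barcodes and neurons than in oligodendrocyte-like nuclei.

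Every member was also counted in excitatory neuron-like nuclei of every library. Mbp was at 155, 131, 108 and 98.5 CPM (123 ± 25.3), and Mobp at 48.3, 46.8, 36.1 and 33.1 (41.1 ± 7.59). For both, the PE-low libraries were above the PE-high libraries. Mal was at 39.7, 40.9, 28.4 and 39.2 (37.1 ± 5.80), and Cnp at 26.8, 24.0, 24.3 and 22.1 (24.3 ± 1.92). Mog, by contrast, was at 9.78, 7.21, 10.1 and 7.85 (8.73 ± 1.41). Relative to near-empty barcodes of the same library, the level in excitatory neuron-like nuclei ranged by member from 9.13% ± 2.03 for Opalin to 16.2% ± 1.93 for Cnp.

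The proportions of the 9 genes in neurons were nearer to those of near-empty barcodes than to those of oligodendrocyte-like nuclei. The share of UMIs that would have to change gene to turn one profile into the other was a mean of 9.03 percentage points between excitatory neuron-like nuclei and near-empty barcodes, and 20.9 between excitatory and oligodendrocyte-like nuclei. The corresponding values were 7.84 and 18.4 for inhibitory and 10.0 and 23.2 for striatal neuron-like nuclei. Counting error widens such differences. It weighs more on the oligodendrocyte-like profile at 3%, from as few as 20 nuclei in a library, than on that of near-empty barcodes. Its part in these values was not tested. The difference from near-empty barcodes was the smaller one in 4 of 4 libraries for each of these classes, at 15% as well, where it was 11.8 against 15.3 for excitatory neuron-like nuclei. With barcodes of 1 to 9 UMIs it was also the smaller one in 4 of 4 libraries at both limits, and with those of 10 to 100 UMIs in 3 or 4. The likeness was not exact. Mag, Mal, Opalin and Cldn11 each had a smaller share in excitatory neuron-like nuclei than in near-empty barcodes in 4 of 4 libraries (0.741 ± 0.0931, 0.760 ± 0.0794, 0.733 ± 0.225 and 0.821 ± 0.0478 times), and Mbp and Cnp a larger one (1.17 ± 0.0331 and 1.27 ± 0.0632 times). In nuclei with markers of oligodendrocytes and neurons together, the difference was smaller from oligodendrocyte-like nuclei (10.5) than from near-empty barcodes (19.7).

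Genes of other cell types stood at other shares of their near-empty level in excitatory neuron-like nuclei. At 3% the summed level of the 9 genes in these nuclei was a median of 12.9% of that in near-empty barcodes (10.7% to 14.6%). For the 13 oligodendrocyte markers it was 15.7% (14.0% to 19.6%), and for 3 haemoglobin genes of red blood cells, chosen after seeing the data, 10.6% (7.47% to 12.6%). These 3 lists lay close together. The 10 microglial markers were at 22.8% (22.0% to 24.0%), the 10 astrocyte markers at 27.9% (27.0% to 30.2%) and the 15 vascular markers at 28.9% (23.9% to 41.5%), and in no library did any of them fall to the level of the myelin genes. The source of the counts in neurons was not tested.

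**Figure D3:**
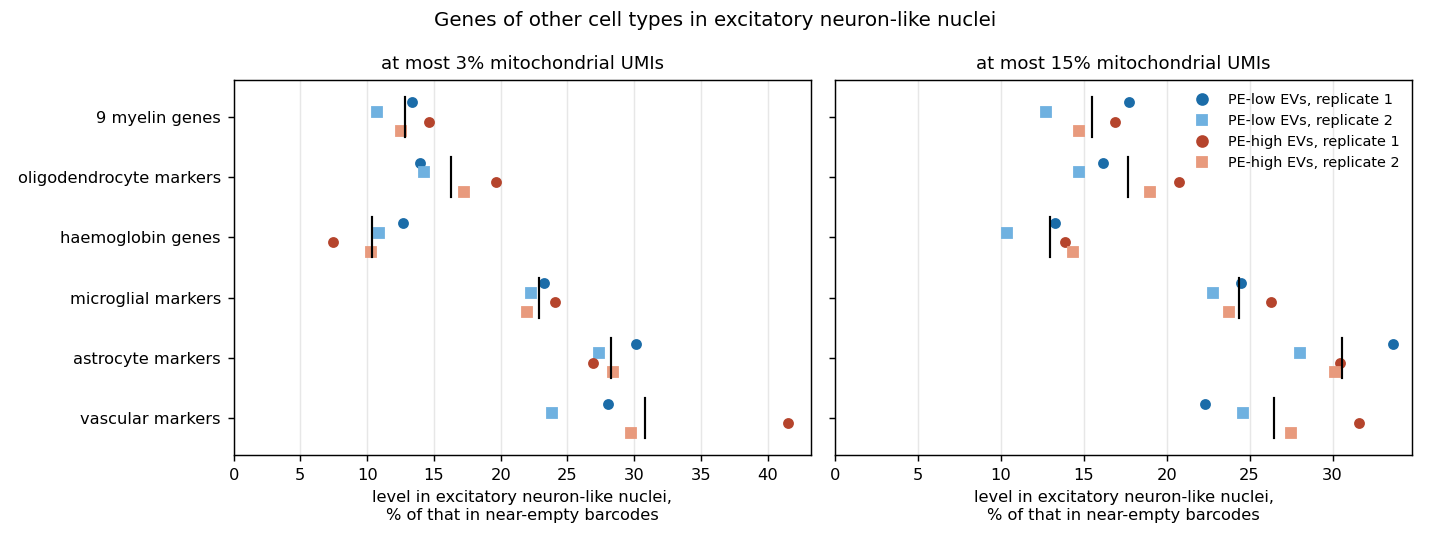
Summed level of gene lists of other cell types in excitatory neuron-like nuclei, as a percentage of the level in near-empty barcodes of the same library, at 3% (left) and 15% (right). Each point is 1 library and each line the mean of 4. At 3% the 9 myelin genes lie between 10.7% and 14.6%, beside 22.0% to 24.0% for microglial and 27.0% to 30.2% for astrocyte markers.

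Counts per nucleus depend on depth, so nuclei were thinned to 1000 UMIs, leaving out shallower ones. At 3%, the median depth was 646 to 1101 UMIs per library in oligodendrocyte-like and 2022 to 3569 in excitatory neuron-like nuclei. After thinning, 33, 93, 6 and 10 oligodendrocyte-like nuclei remained (18, 64, 14 and 57 were too shallow), and 100% of them held at least 1 UMI of the 9 genes. For 6 nuclei the exact 95% interval of such a share reaches down to 54.1%. They held a mean of 4.64, 4.27, 4.83 and 4.6 of the 9 genes. In excitatory neuron-like nuclei, of a cell type that makes no myelin, 26.6%, 23.4%, 21.3% and 20.3% held at least 1 UMI, with a mean of 0.304, 0.267, 0.245 and 0.232 genes, and 4 to 52 nuclei per library were too shallow. Unthinned, the share in excitatory neuron-like nuclei was 55.5%, 57.7%, 40.5% and 36.2%. Mbp alone was seen in 14.1%, 11.5%, 10.2% and 8.41% of the thinned excitatory neuron-like nuclei and Mog in 1.24%, 0.581%, 1.29% and 0.993%. The Mbp gene also gives golli transcripts, which neurons can make, and the counts do not tell them from those of myelin. Beside these shares, Mog was seen in 21 of 33, 66 of 93, 3 of 6 and 4 of 10 of the thinned oligodendrocyte-like nuclei. Intervals cover counting error only.

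Over all barcodes, the level of the 9 genes changed with barcode depth. In barcodes with 200 to 299 UMIs it was 2419, 2698, 1704 and 2014 CPM, and in those with 500 to 999 UMIs 3823, 4378, 2097 and 2416. The latter range was the highest of the 9 ranges in 3 of 4 libraries. In PE-high replicate 2 the highest was 300 to 499 UMIs, at 2561. In barcodes with 2000 UMIs or more the level was 564, 542, 308 and 306. Both PE-low libraries were above both PE-high libraries in 8 of the 9 ranges. The exception was 50 to 99 UMIs, a range that held at most 36620 UMIs in a library.

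**Figure D4:**
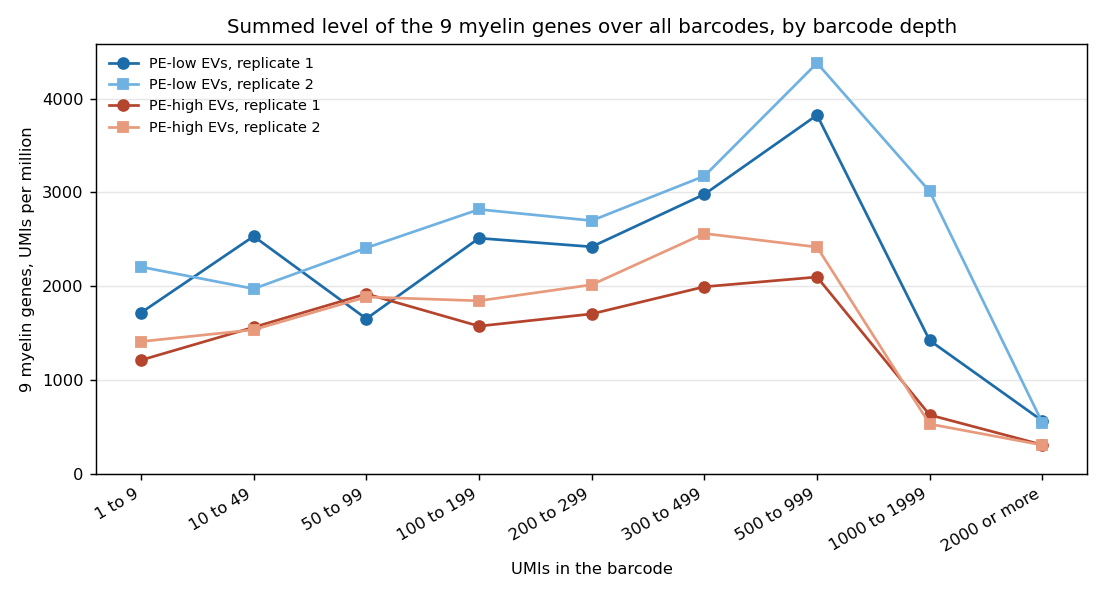
Summed level of the 9 myelin genes in CPM (vertical axis, from 0) over all barcodes of a library, by the number of UMIs in the barcode (horizontal axis, unequal ranges). Each line is 1 library; the level is highest at 300 to 999 UMIs per barcode and lowest at 2000 or more, where it lies between 306 and 564.

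The mitochondrial share moved with the level in opposite ways inside and outside oligodendrocytes. In oligodendrocyte-like nuclei clustered at the 15% limit, the sum was 11660, 10539, 11186 and 11660 CPM in nuclei with 1% to 3% mitochondrial UMIs and 9017, 8645, 6346 and 7199 in those with 10% to 15%. In excitatory neuron-like nuclei it was 222, 214, 159 and 148 at up to 1% and 959, 634, 416 and 592 at 10% to 15%. Between these end ranges the direction was the same in 4 of 4 libraries for each class. The fall in oligodendrocyte-like nuclei was not steady. From 5% to 10% to the highest range, the sum rose from 8164 to 9017 in PE-low replicate 1 and from 8391 to 8645 in PE-low replicate 2, and fell in both PE-high libraries. Median depth was also lower in the highest than in the lowest of these ranges, in every library of both classes. A higher limit on mitochondrial UMIs thus moved both classes towards the level of the near-empty barcodes, and what the 2 measures share was not tested.

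Along the lineage, the members did not appear together. In newly formed oligodendrocyte-like nuclei (21, 35, 2 and 13 nuclei at 3%), Mbp was at 4750, 5434, 4380 and 5623 CPM, which overlaps the range of 4521 to 5334 in oligodendrocyte-like nuclei. The class was split, with Mbp at 7260 in a cluster of 27 nuclei, 4367 in 26 and 1019 in 18. At 15% its clusters were at 8601, 3228 and 1089 (57, 71 and 60 nuclei). Mal was counted with 3 UMIs in all 71 nuclei, Opalin with 4, Ermn with 3 and Mog with 15. At 15%, with 188 nuclei, Mog was at 230, 151, 113 and 90.5, beside 867, 837, 653 and 703 in oligodendrocyte-like nuclei, and Mal at 84.9, 40.2, 159 and 151, beside 828, 690, 574 and 723. Neither gene overlapped between the classes. Opalin was at 133, 30.1, 90.7 and 0, beside 184 to 243. Mag, which was at 691, 683, 363 and 211, overlapped the mature range of 511 to 706. In precursor-like nuclei the sum of the 9 genes at 15% was 1263, 1126, 702 and 630, below the near-empty barcodes in every library.

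Oligodendrocyte-like nuclei were not uniform either. At 3% they fell into 193 nuclei at 7999 CPM of the 9 genes and 102 nuclei at 14870, and Opalin was at 127 and 522. The difference had the same direction in 4 of 4 libraries, at 8775 and 14478 in PE-low replicate 1, 7858 and 15270 in PE-low replicate 2, 6062 and 12916 in PE-high replicate 1, and 8049 and 15243 in PE-high replicate 2. The group with more myelin RNA was also deeper, with a median of 1298 UMIs per nucleus against 922. Ermn did not follow, at 275 in the lower group and 199 in the higher. At 15% there were 5 groups between 7376 and 12150, with Opalin from 70.6 to 429. The members were left out of the clustering, but genes that move with them were not.

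Mal made up a larger share of the 9 genes in vascular-like nuclei than in near-empty barcodes or oligodendrocyte-like nuclei, while its level was below that of near-empty barcodes in 3 of 4 libraries. The exception was PE-low replicate 1. At 15%, vascular-like nuclei (334, 203, 171 and 170) held Mal at 469, 390, 276 and 298 CPM (358 ± 88.8), beside 416, 504, 280 and 359 in near-empty barcodes and 32.8 to 46.2 in excitatory neuron-like nuclei. Mbp, in the same nuclei, was at 478, 589, 404 and 243, below its near-empty level of 645 to 1046 in every library. Mal made up 33.3%, 26.7%, 28.7% and 31.9% of the 9 genes in vascular-like nuclei, beside 17% to 19.4% in near-empty barcodes and 7.57% to 9.48% in oligodendrocyte-like nuclei. After thinning to 1000 UMIs, 37.2%, 28.9%, 25.6% and 33.3% of vascular-like nuclei held Mal, beside 5.29%, 3.42%, 3.37% and 3.92% of excitatory neuron-like nuclei. The median depth before thinning was 636 to 1139 UMIs in vascular-like and 1887 to 3371 in excitatory neuron-like nuclei, and 205, 82, 132 and 146 vascular-like nuclei were too shallow. The highest levels, 481 to 646, were in 3 clusters rich in the endothelial genes Flt1 and Cldn5 that came from PE-low replicate 1 in 142 of 144, 71 of 71 and 39 of 39 nuclei. In the one of 71 nuclei, Mal was at 646 and Mbp at 225. In the largest cluster, of 291 nuclei, Mal was at 430 and Mbp at 498, and Flt1 was at 3037. Vascular-like nuclei were not resolved as a class at 3%.

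Other glia carried the 9 genes between the levels of neurons and of near-empty barcodes. At 15%, astrocyte-like nuclei were at 1118, 1151, 779 and 934 and microglia-like nuclei at 1226, 1404, 1045 and 842 CPM, below near-empty barcodes in every library. At 3% astrocyte-like nuclei were at 465, 727, 607 and 468. Microglia-like nuclei at 3% were few (23, 36, 4 and 19) and ranged from 151 to 2117. Of 13 oligodendrocyte markers, 11 were raised in the cluster of 71 that holds most of them, so these values are those of a mixed cluster, whereas 0 to 3 were raised in the microglia-like clusters at 15%.

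The genes whose pattern was most like the mean of the members were named by the correlation of log2(CPM + 1) over classes and libraries. At 15%, over 40 points from 10 classes, they included Sept7 (r = 0.936), a septin, Erbin (0.914), Qdpr (0.914) and Tspan2 (0.912), a tetraspanin of myelin. At 3%, over 24 points from 6 classes, they were Prr5l (0.914), Arhgef10 (0.904), Tmod2 (0.897), Rcbtb1 (0.889) and Add1 (0.889). None of these genes was named at both limits. Points of 1 library share its depth, and points of 1 class the composition of that class. Prr5l was at 1583, 2015, 1061 and 1309 CPM in oligodendrocyte-like nuclei at 3% and at 13.6, 15.9, 8.35 and 9.22 in near-empty barcodes. The levels in the 4 libraries did not overlap between the nuclei and the near-empty barcodes. Prr5l and Tspan2 are, however, among the 13 oligodendrocyte markers by which clusters were named. The likeness of both genes, and the high level of Prr5l in this class, follow in part from that naming.

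The EV groups were compared on UMIs summed per library and class, with edgeR's quasi-likelihood test and Benjamini-Hochberg adjustment over all genes tested, and a call at an adjusted p below 0.1. Positive log2 fold changes are higher in PE-low. In oligodendrocyte-like nuclei none of the 8 members tested was called (0% of 927 genes tested were called, and 2.59% had an unadjusted p below 0.05, in either direction). Cnp had too few UMIs to be tested. At 3%, 4 of 8 were positive, with a median log2 fold change of -0.035 beside -0.011 over all genes, and each adjusted p was 0.997. Mbp was at 0.052 ± 0.27 (SE), Mobp at -0.30 ± 0.31, Mag at -0.12 ± 0.40, Mog at 0.055 ± 0.38 and Mal at -0.27 ± 0.40. Cldn11 was the largest at 0.90 ± 0.45, with an unadjusted p of 0.0586 by edgeR. Both PE-low libraries were above both PE-high libraries for 1 of 8 members and below for 3, beside 16.5% of all genes above and 15.3% below. DESeq2 also called 0. With SEs from 0.27 to 0.50, a p that misses the threshold does not show that the groups were alike.

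With the larger classes at 15%, 8 of 9 members were positive, from -0.13 ± 0.24 for Mobp to 0.32 ± 0.19 for Mog, with adjusted p from 0.937 to 0.978 (edgeR). None was called, as were 0% of 8971 genes, and 0 of 9 had an unadjusted p below 0.05 beside 4.98% of genes. Both PE-low libraries were above both PE-high libraries for 5 of 9, beside 17.9% of genes. Of the 42 other myelin genes listed, 18 could be tested at 3%, with 9 positive and 0 called, and 40 at 15%, with 32 positive and 0 called.

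In near-empty barcodes 9 of 9 members had a positive log2 fold change, and none was called. The log2 fold change was 0.52 ± 0.16 for Mbp, 0.51 ± 0.14 for Mobp, 0.48 ± 0.13 for Mag and 0.50 ± 0.14 for Mog. It was 0.45 ± 0.16 for Mal and 0.53 ± 0.15 for Cldn11, and smaller for Cnp (0.27 ± 0.13), Opalin (0.26 ± 0.15) and Ermn (0.20 ± 0.13). The median of the 9 was 0.48, beside -0.0080 over the 14159 genes tested. Adjusted p ranged from 0.758 to 0.998 (edgeR, 0% of genes called). Without adjustment, 6 of 9 had a p below 0.05, from 0.00247 for Mag to 0.0119 for Mal, beside 1.94% of genes that had such a p and were higher in PE-low. For Mbp the levels were 958 and 1046 in PE-low and 645 and 684 in PE-high, and the groups did not overlap in 8 of 9 members, the exception being Opalin (60.2 and 47.8 against 38.9 and 47.8), beside 23.1% of genes. Of the 42 other myelin genes 40 were positive and 17 had an unadjusted p below 0.05, all of them higher in PE-low, with 0 called. The calls turned on single libraries and on the tool. Without PE-low replicate 1, 6 members were called (Mbp, Mobp, Mag, Mog, Mal and Cldn11), beside 1.27% of genes called higher in PE-low, and without PE-low replicate 2, 2 were (Mag and Mog), beside 0.117%, each with a lone library standing for its group. DESeq2 called the 3 members to which it gave an adjusted p (Mbp, Mobp and Mal), beside 0.989% of 708 genes. Without a filter on low counts Cldn11 was called, beside 0.267% of genes.

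**Figure D5:**
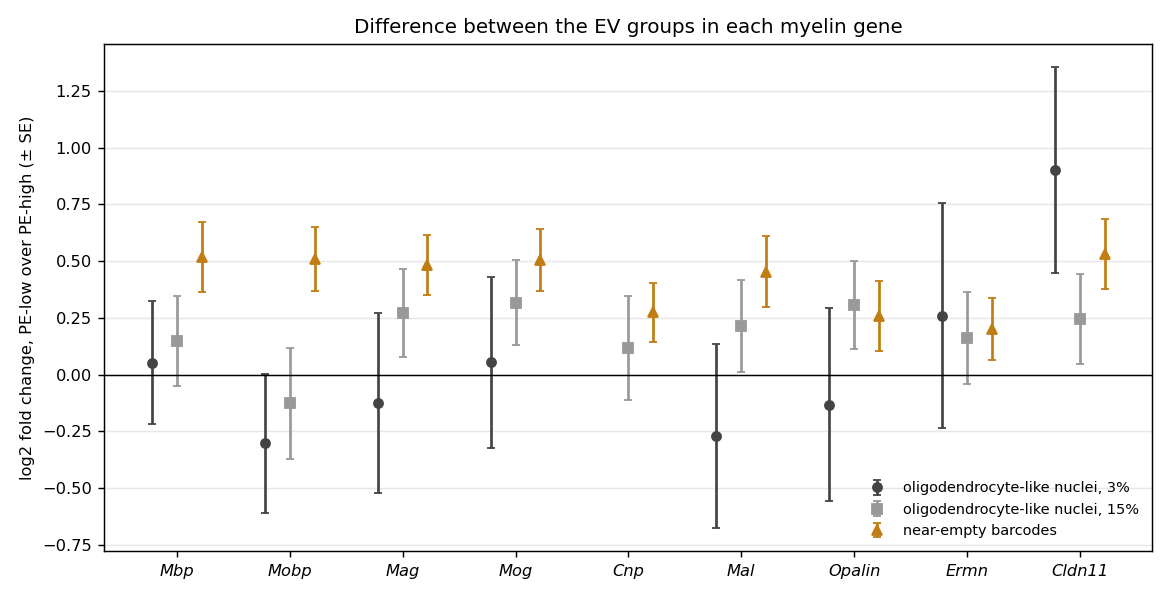
Log2 fold change of each myelin gene, PE-low over PE-high EVs (vertical axis), in oligodendrocyte-like nuclei at 3% and 15% and in near-empty barcodes. Points are estimates of edgeR's quasi-likelihood model from 2 libraries per group and bars are ± SE. In near-empty barcodes the 9 values lie between 0.20 and 0.53, whereas those at 3% lie on both sides of 0, and Cnp could not be tested there.

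Whether the difference between the EV groups differed between compartments was tested as an interaction, with the library as a covariate. At 3%, 0 of 8 members were called (0% of 925 genes were), 1 had an unadjusted p below 0.05, beside 2.81% of genes in either direction, and 6 were negative, that is, with the larger PE-low to PE-high ratio in near-empty barcodes. Mobp had the largest at -0.80 ± 0.31 (adjusted p = 0.998 by edgeR). At 15% 8 of 9 were negative, and Mobp was again the largest at -0.69 ± 0.15 with an adjusted p of 0.413. The calls at 15% turned on the setting. Mobp was called without a filter on low counts (-0.62, adjusted p = 3.3e-04 by edgeR), beside 0.0129% of genes called in the same direction. With a PE-low library left out, a lone library stood for its group, so only log2 fold changes are given. Mobp was at -0.99 without PE-low replicate 2, and Mbp at -0.41 and Mal at -0.46 without PE-low replicate 1.

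In the other classes the members were also mostly positive and not called. At 3%, Mbp in excitatory neuron-like nuclei was at 0.44 ± 0.13 (adjusted p = 0.607 by edgeR), Mobp at 0.43 ± 0.17, and 7 of 9 members were positive. PE-low libraries were above PE-high libraries for 5 of 9, beside 19.7% of genes. Of 34126 tests in the 3 neuron classes 0.00586% were called, and none was a member. At 15%, Mobp in excitatory neuron-like nuclei was at 0.61 ± 0.13 and Mbp at 0.57 ± 0.12, each with an adjusted p of 0.284, and of 67244 tests in 9 classes 0.00297% were called, none of them a member. In precursor-like nuclei at 15%, 6 of 6 members tested were positive, with Mobp at 1.07 ± 0.29 and Mbp at 0.86 ± 0.23 (adjusted p = 0.741 by edgeR for both). Mal in vascular-like nuclei was at 0.52 ± 0.29, with an adjusted p of 1.00. At 3%, Mbp was at 0.56 in excitatory neuron-like nuclei without PE-low replicate 2 and at 0.59 in striatal neuron-like nuclei without PE-low replicate 1. Members were called in some alternative settings, and the share of all genes called higher in PE-low in the same setting is given beside each call. Where a library was left out, a lone library stood for its group, so such a call holds no spread between the pools of that group. At 15%, Mbp and Mobp were both called in excitatory neuron-like nuclei without either PE-low library. Their log2 fold changes were 0.41 and 0.50 without replicate 1, beside 1.12% of genes called, and 0.72 and 0.71 without replicate 2, beside 1.6%. Without a filter on low counts they were called there too, at adjusted p of 0.0582 and 0.0916, beside 0.0211% of genes. Mobp in inhibitory neuron-like nuclei was called without PE-low replicate 1, without PE-low replicate 2 and without a filter (0.69 to 0.72), beside 1.52%, 0.0683% and 0.167% of genes. Mbp and Mobp in striatal neuron-like nuclei were called without PE-low replicate 1 (0.56 and 0.52, beside 2.1%). Outside neurons, Mobp was called in astrocyte-like nuclei without PE-low replicate 1 (0.78, beside 1.19%), and Mbp in newly formed oligodendrocyte-like nuclei without PE-high replicate 2 (0.73, beside 1.69%). The near-empty barcodes of the same libraries had 9 of 9 members positive, and their part in these values was not tested.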

How the data were processed

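Nuclei from frozen whole-brain sections were profiled with 10x Genomics 3' chemistry in 4 libraries, and the submitters' processing notes name Cell Ranger 7.1.0 and mm10. The authors deposited unfiltered matrices of raw UMI counts per gene and barcode. No column was left out.

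Barcodes were called nuclei from a knee (1/10 of a high-rank UMI count) plus a test against the ambient profile at 500 UMIs or more and a false discovery rate of 0.01. As in the study's methods, nuclei were kept if they held 200 to 2500 genes, with a mitochondrial share of 3% or less. They were scaled to 10000 UMIs and clustered with scanpy 1.11.5 on 2000 variable genes without the 9 members (30 components, 20 neighbours, Leiden resolution 0.8). Clusters were named from listed markers with at least 20 CPM, raised 3-fold for glia and 1.5-fold for neurons. Clusters best matched by oligodendrocyte markers were called mixed if their level of pan-neuronal markers exceeded 50% of its median in non-glial clusters. Glial clusters were left unnamed if another class had at least 3 raised markers and a median marker level of at least 25% of the highest over clusters. These thresholds of naming were set after the clusters were seen. Scrublet called 0% to 2.79% of nuclei doublets at the 15% limit, under 0.5% in 2 of 4 libraries. At 3% it called 0.468%, 0.100%, 0.892% and 0.116%, that is 13, 3, 13 and 4 nuclei. It did not work with so few calls, so doublets were kept. Leaving its calls out at 3% thus changed little in the data.

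UMIs were summed per library and class and tested with edgeR 4.0.16 in R 4.3.3 (filterByExpr, TMM, quasi-likelihood), all 9 members being named. Classes other than oligodendrocyte-like were tested where every library held at least 20 nuclei. The scripts were tested on simulated data. The study tested single nuclei, whereas here the replicate is the library, which is a pool of 2 mice, with 2 libraries per group. P-values measure the spread between these pools. The precision follows the 29472021 to 43272337 UMIs per library. The members and lists were chosen with earlier results of these data known. Of the 42 other myelin genes, those called were to be named. One item that the naming rules select is not reported here. Like patterns are the 5 non-members with the highest correlation among genes with at least 200 UMIs. Shares of nuclei have exact 95% binomial intervals. Alternatives were 5% and 15% limits, no upper gene limit, Scrublet calls removed, a gate of at least 3 markers per nucleus, other near-empty ranges, DESeq2 1.42.0, no filter, an adjusted p of 0.05, a replicate block, and leaving out each library.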

Additional observations from a re-analysis of the deposited data

How the results depend on the processing

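In oligodendrocyte-like nuclei 0 members were called under each of the 13 alternatives run, and 0 interactions in 15, each changing 1 choice from the 3% limit. Calls in near-empty barcodes rose from 0 to 1 without a filter on low counts (Cldn11), and to 3 with DESeq2 (Mbp, Mobp and Mal), which gave an adjusted p to 708 genes. Leaving out 1 library gave 0 to 6 calls there: 6 without PE-low replicate 1 (Mbp, Mobp, Mag, Mog, Mal and Cldn11, beside 1.27% of genes called higher), 2 without PE-low replicate 2 (Mag and Mog, beside 0.117%). In other classes it gave 0 to 1, with Mbp called in striatal neuron-like nuclei without PE-low replicate 1 and in excitatory neuron-like nuclei without PE-low replicate 2. The replicate numbers of the labels mark no shared animal, and deviations of libraries with the same number correlated weakly (0.171 in oligodendrocyte-like nuclei, 0.108 in near-empty barcodes), so the numbers were not taken as pairs. A replicate block gave 0 calls among members in oligodendrocyte-like nuclei, near-empty barcodes and other classes at 3%. At 15% it called Mbp and Mobp in excitatory and striatal and Mobp in inhibitory neuron-like nuclei. The share of all genes that it called in these classes is not given, so these calls cannot be read as particular to the members. In near-empty barcodes it raised the calls over all genes from 0 to 43 higher and 38 lower. The near-empty share of the oligodendrocyte-like level moved from 19.3% to 25.4% at 15% and 65.6% with the marker gate, whose 824 nuclei at 3% came from any cluster. For excitatory, inhibitory and striatal neuron-like nuclei the shares were 3.05%, 3.83% and 3.83% at 5%, 3.91%, 4.91% and 5.16% at 15%, and 8.30%, 9.97% and 10.3% with the gate. The share of nuclei with at least 1 UMI of the 9 genes was 99.6% unthinned and 98.7% thinned to 500 UMIs for oligodendrocyte-like, 47.5% and 13.8% for excitatory, 45.5% and 14.6% for inhibitory, and 49.0% and 15.2% for striatal neuron-like nuclei. In oligodendrocyte-like nuclei the sign of log2 fold changes turned with the marker gate for Mbp (-0.029), Mog (-0.046) and Ermn (-0.26), without a filter for Mobp (0.012), Mag (0.19), Mal (0.038) and Opalin (0.16), at 5% for Mal (0.18), and at 15% for Mag (0.27), Mal (0.21) and Opalin (0.31). Leaving out 1 library gave -0.034 to 0.23 for Mbp, -0.43 to 0.20 for Mag, -0.21 to 0.35 for Mog and -0.10 to 2.23 for Ermn. Cnp in near-empty barcodes was at -0.012 with barcodes of 1 to 9 UMIs. Of 84 log2 fold changes in near-empty barcodes under alternatives, 71 kept direction and side of the threshold and 12 became calls, the latter without a PE-low library, with DESeq2 or without a filter. Of 27 near-empty shares of the 9 genes under 3 other barcode ranges, 20 moved by more than 1 SD. Near-empty barcodes at ranks 20000 to 45000 were an alternative chosen after seeing the data. The causes were not tested. With 2 libraries per group and 20 nuclei in the smallest class, changes of single members in oligodendrocyte-like nuclei were not detectable at this depth unless large.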
